A study of Mus musculus with 8 samples.

Results

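Superoxide and peroxide are by-products of respiration and of dedicated oxidases, and cells hold a set of enzymes that remove them in turn. Superoxide dismutases turn superoxide into hydrogen peroxide. Sod2 does this in the mitochondrial matrix with manganese, Sod1 in the cytosol with copper and zinc, and Sod3, a secreted copper and zinc enzyme, in the extracellular matrix. Peroxide is then removed by catalase (Cat) in peroxisomes, by glutathione peroxidases (Gpx1, Gpx4) and by peroxiredoxins (Prdx1 in the cytosol, Prdx3 and Prdx5 in mitochondria), and thioredoxin 2 (Txn2) returns electrons to the mitochondrial peroxiredoxins. In muscle, a tissue rich in mitochondria, the deacetylase SIRT3 is known as a regulator of Sod2, both through the protein's acetylation and, via FOXO factors, through its transcription.

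The 10 genes named above were taken by symbol from a table of counts for 35949 genes. All 10 were found, and all 10 passed the filter on low counts that left 14064 genes for testing. They were read in 4 compartments, with Sod2, Prdx3, Prdx5 and Txn2 as the 4 mitochondrial members, Sod1, Gpx1, Gpx4 and Prdx1 as the 4 cytosolic members, Cat as the peroxisomal enzyme and Sod3 as the secreted one. Gpx1, Gpx4 and Prdx5 are made for more than 1 compartment, and counts per gene do not separate their forms.

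The tissue was gastrocnemius, the large muscle of the calf, from aged mice that had been given blood-forming stem cells (HSCs). The series describes the donor cells as control cells or as cells overexpressing SIRT3, and it gives no age in months. There were 4 libraries with the genotype WT, whose titles begin with Mx1, and 4 with the genotype T3TG, whose titles begin with T3. These are read here as the control arm and the SIRT3 arm. Both arms are thus transplanted aged hosts, there is no group without a transplant, and the muscle fibers are the host's own. The labels name neither the promoter of the transgene nor the strain, and they do not say whether each library is a separate animal. The p-values therefore speak only of the spread among these 8 libraries.

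The polyA libraries held between 16.2 and 28.1 M counts each. In T3TG replicates 2 and 3, 97.5% and 98.0% of the values between 10 and 99 were even, against 50.5% to 52.5% in the other 6 libraries, so the fold change of each member, and of other named genes where it differs by over 1.5 times or in sign, is also given over the 6 libraries without them. What made these values even is not given, so the counts of T3TG replicates 2 and 3 may not equal the reads behind them. Levels are CPM, counts relative to the library total, scaled with TMM factors. Skeletal muscle actin (Acta1) stood at 32709 CPM in WT against 32506 CPM in T3TG, and 0 of the 10 muscle identity genes were at 0 in all libraries. Sirt3 itself was measured at 17.3, 16.5, 19.7 and 22.0 CPM in WT replicates 1 to 4 and at 19.1, 20.5, 15.8 and 15.4 CPM in T3TG replicates 1 to 4. The groups overlapped, with a log2 fold change of -0.09 (SE 0.13) and an adjusted p of 0.881 in edgeR's quasi-likelihood test. A higher Sirt3 level was thus not detectable in whole T3TG muscle. The series places the overexpression in the transplanted cells, so this value does not check the labels.

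The first 25 codons of the mitochondrial and the secreted superoxide dismutase and of a cytosolic and a mitochondrial peroxiredoxin are shown to set the start of a protein that is imported into mitochondria or secreted beside that of one that stays in the cytosol. Lysine and arginine codons are in capitals, and the sequences are those of GENCODE M21 transcripts (GRCm38) that match RefSeq.
Sod2: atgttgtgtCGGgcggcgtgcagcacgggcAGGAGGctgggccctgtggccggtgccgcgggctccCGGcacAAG
Sod3: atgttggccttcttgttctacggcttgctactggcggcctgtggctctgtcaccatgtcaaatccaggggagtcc
Prdx1: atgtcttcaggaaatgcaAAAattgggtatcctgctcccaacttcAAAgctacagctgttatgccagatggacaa
Prdx3: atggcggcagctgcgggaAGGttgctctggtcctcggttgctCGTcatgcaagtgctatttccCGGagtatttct
Sod2 has 5 basic codons and 0 acidic codons in this stretch, and Prdx3 has 3 and 0. Mitochondrial import leaders are known for this composition. Prdx5 has 3 basic and 0 acidic codons and Txn2 has 4 and 0, so all 4 mitochondrial members have at least 3 basic and 0 acidic codons, against 7.54% of 21595 coding genes. This cutoff equals the lowest values among the 4 members, so the comparison is a description and not a test. The share of coding genes takes the longest coding sequence of each gene. The secreted Sod3 begins with 0 basic codons and 1 acidic codon, and Cat has 5 and 5. The composition does not single out the mitochondrial members, because the longest form of Gpx4 has 12 basic and 0 acidic codons. Gpx4 is placed with the cytosolic enzymes as a gene, and this longest form was not identified as the cytosolic one.

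Gpx1 and Gpx4 are selenoproteins, in which an in-frame TGA is read as selenocysteine, the residue that reacts with peroxide. The TGA, in capitals, stands at codon 47 of 201 in Gpx1 and at codon 129 of 253 in the longest form of Gpx4.
Gpx1: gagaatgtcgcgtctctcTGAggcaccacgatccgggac
Gpx4: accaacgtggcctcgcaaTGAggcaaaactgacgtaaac
Both sites are followed by a glycine codon. An in-frame TGA before the last codon occurred in 47 coding genes, or 0.218% of them. This count takes any such TGA and does not ask whether it is read as selenocysteine.

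Levels of the 10 genes differed widely. Per kilobase of transcript, WT muscle held most Gpx4, the enzyme that reduces lipid peroxides in membranes, at 345 ± 42.7 CPM per kb (SD, n = 4). Sod1 followed at 167 ± 18.8, Txn2 at 131 ± 11.8, Prdx3 at 121 ± 6.92, Prdx5 at 104 ± 8.84 and Prdx1 at 80.2 ± 8.27 CPM per kb. Below them were Gpx1 at 64.6 ± 6.58, Sod2 at 46.2 ± 2.01, Cat at 41.3 ± 4.80 and Sod3 at 3.91 ± 0.570 CPM per kb. The WT ranges of neighbours in this order overlapped for Sod1 and Txn2, Txn2 and Prdx3, Prdx1 and Gpx1, and Sod2 and Cat. The order rests on the transcript taken for length: with all annotated exons joined, Sod1 would stand at 27.0 and Sod2 at 27.1 CPM per kb. Per gene, Gpx4 lay at percentile 97.7 and Sod2 at percentile 97.1 of the CPM of all genes tested, and Sod3 at percentile 54.9.

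Sod3, the extracellular dismutase, was the member with the largest difference between the groups, and its values were higher in T3TG. The gene lies on chromosome 5 (mm10, chr5:52363804-52369738, plus strand). It was measured at 15.6, 13.6, 12.2 and 17.1 CPM in WT replicates 1 to 4, on counts of 194 or more. The T3TG libraries, in the same order, were at 18.8, 18.02, 20.8 and 17.7 CPM. All T3TG values were above all WT values, although WT replicate 4 and T3TG replicate 4 nearly touched. Of all genes tested, 3.12% were separated in this direction. The mean was 14.6 ± 2.13 CPM in WT against 18.8 ± 1.39 CPM in T3TG (SD, n = 4), a log2 fold change of 0.36 (SE 0.12). Its 95% interval ran from 1.08-fold to 1.54-fold. Sod3 did not pass the threshold of 0.05, with an adjusted p of 0.384 by edgeR's quasi-likelihood test (unadjusted 0.00888) and 0.284 by DESeq2. Over the 6 libraries the log2 fold change was 0.32 (SE 0.15).

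Sod2, the mitochondrial dismutase and the member most often linked to SIRT3, had nearly equal levels in the groups. It lies at chr17:13007839-13018119 on the plus strand. Its level was 281, 265, 257 and 280.2 CPM in WT replicates 1 to 4 and 279.5, 271, 247 and 272 CPM in T3TG replicates 1 to 4. The lowest library of either group was replicate 3, and the groups overlapped over most of their range. The log2 fold change was -0.02 (SE 0.08), and the adjusted p was 0.972 in edgeR. The 95% interval ran from 0.879-fold to 1.11-fold. Over the 6 libraries the value was 0.03. Sod2 also varied least among the WT libraries, with a coefficient of variation of 4.34%, against 14.6% for Sod3.

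Sod1, the copper and zinc enzyme of the cytosol, had lower values in T3TG without separation of the groups. Its level was 91.2, 113, 119 and 106 CPM in WT replicates 1 to 4 and 97.9, 90.3, 100.3 and 93.0 CPM in T3TG replicates 1 to 4. WT replicate 1 was as low as the T3TG libraries, while the other 3 WT libraries were above all of them. The log2 fold change was -0.17 (SE 0.09, 95% interval -0.36 to 0.02), with an adjusted p of 0.653 in edgeR, and -0.17 over the 6 libraries. The gene lies at chr16:90220762-90226333 on the plus strand and overlaps Scaf4 on the other strand. The strand setting of the counting is not given in the labels, so reads of the overlap cannot be assigned to one gene.

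**Figure D1:**
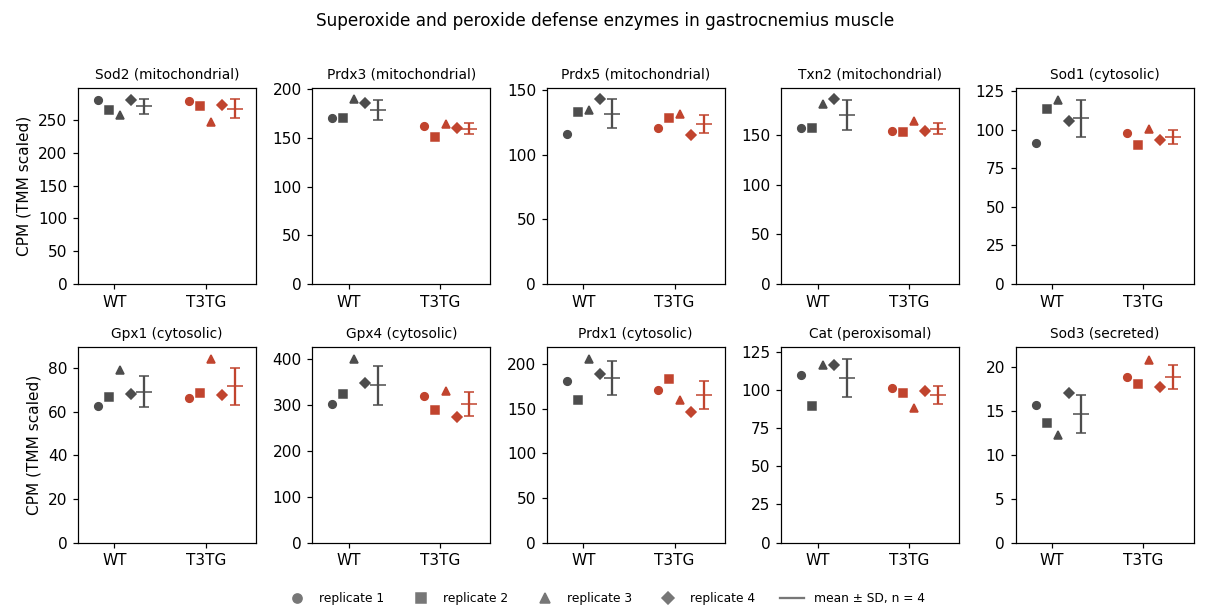
Level of each of the 10 enzymes in CPM scaled with TMM factors (vertical axes, each from 0) in the 4 WT and 4 T3TG libraries, with 1 symbol per replicate number and the mean ± SD at the right of each group. Sod3 and Prdx3 are the members whose groups do not overlap, Sod3 with T3TG higher and Prdx3 with T3TG lower.

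Among the mitochondrial peroxidases, Prdx3, the main peroxiredoxin of the matrix, had lower values in T3TG. It stood at 169.9, 170.1, 189 and 186 CPM in WT replicates 1 to 4 and at 162, 151, 164 and 160.5 CPM in T3TG replicates 1 to 4. Every T3TG library was below every WT library, as was the case for 1.66% of all genes tested. The mean was 179 ± 10.2 CPM in WT against 159 ± 5.84 CPM in T3TG (SD, n = 4), a log2 fold change of -0.16 (SE 0.08). The unadjusted p was 0.0498 and the adjusted p 0.599 in edgeR, and over the 6 libraries the log2 fold change was -0.15 with an unadjusted p of 0.160. The gene is at chr19:60864066-60874538 on the minus strand.

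Prdx5, a peroxiredoxin found in mitochondria, peroxisomes and cytosol, had overlapping groups. It was measured at 116, 133, 135 and 143 CPM in WT replicates 1 to 4 and at 120.5, 128, 131 and 115 CPM in T3TG replicates 1 to 4. The log2 fold change was -0.09 (SE 0.08, 95% interval -0.27 to 0.09; adjusted p 0.820 in edgeR), and -0.16 over the 6 libraries. It lies at chr19:6906697-6910106 on the minus strand and overlaps Trmt112 on the other strand. Txn2, the thioredoxin that recharges Prdx3, was at 157, 157, 181 and 186 CPM in WT replicates 1 to 4 and at 154, 152, 164 and 154 CPM in T3TG replicates 1 to 4. The 3 lowest libraries were T3TG libraries, and T3TG replicate 3 lay above WT replicates 1 and 2. Its log2 fold change was -0.12 (SE 0.08, 95% interval -0.30 to 0.05; adjusted p 0.730 in edgeR), and -0.14 over the 6 libraries. Txn2 lies at chr15:77915051-77928994 on the minus strand.

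Among the cytosolic peroxidases, Gpx4 and Prdx1 had lower mean values in T3TG, and Gpx1 did not. Gpx4 stood at 302, 324, 401 and 348 CPM in WT replicates 1 to 4 and at 319.8, 289, 329.9 and 273 CPM in T3TG replicates 1 to 4. WT replicate 3 was the highest, and WT replicates 1 and 2 lay within the T3TG range. The log2 fold change was -0.18 (SE 0.10, 95% interval -0.39 to 0.03; adjusted p 0.668 in edgeR), and -0.21 over the 6 libraries. Prdx1, the abundant cytosolic peroxiredoxin, was at 181, 159.96, 206 and 188 CPM in WT replicates 1 to 4 and at 171, 183, 160.2 and 146 CPM in T3TG replicates 1 to 4. Its groups overlapped, with a log2 fold change of -0.16 (SE 0.10, 95% interval -0.36 to 0.05; adjusted p 0.704 in edgeR), and -0.22 over the 6 libraries. Both genes have processed pseudogenes in GENCODE M21, so reads could be split among copies. Gpx4 lies at chr10:80047166-80056439 and Prdx1 at chr4:116685599-116700000, both on the plus strand.

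Gpx1, the general glutathione peroxidase of cytosol and mitochondria (chr9:108339080-108340342, plus strand), was at 62.7, 67.0, 79.2 and 68.2 CPM in WT replicates 1 to 4. The T3TG libraries, in the same order, were at 66.5, 68.4, 84.4 and 67.5 CPM. Replicate 3 was the highest library in either group and the other 6 lay close together. The log2 fold change was 0.05 (SE 0.10, 95% interval -0.16 to 0.26; adjusted p 0.931 in edgeR) over 8 libraries and -0.05 over 6. Cat, the peroxisomal catalase (chr2:103453904-103485153, minus strand), was at 109.7, 89.7, 116 and 116 CPM in WT replicates 1 to 4 and at 101, 98.1, 88.0 and 98.96 CPM in T3TG replicates 1 to 4. WT replicate 2 was nearly as low as T3TG replicate 3, and the other 3 WT libraries were above all T3TG libraries. Its log2 fold change was -0.16 (SE 0.09, 95% interval -0.36 to 0.04; adjusted p 0.683 in edgeR), and -0.11 over the 6 libraries.

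Of the 10 members, 0 passed the adjusted threshold of 0.05, in either direction and by either tool. Among all genes tested with edgeR, 0.0711% passed with higher and 0% with lower values in T3TG. DESeq2 passed 0.748% of its genes with higher and 0.0453% with lower values. At an unadjusted p under 0.05, Sod3 was the 1 member with higher values, against 5.88% of all genes, and Prdx3 the 1 member with lower values, against 2.45%. Counts of 1 in 10 are too few to be set apart from these shares. By sign, 2 members were higher and 8 lower in T3TG, where 6901 genes were higher and 7163 lower over the whole table. The median log2 fold change of the 10 members was -0.14, and that of all genes tested was -0.0043.

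By compartment, the 4 mitochondrial members had a median log2 fold change of -0.11, with 4 of 4 lower in T3TG. The 4 cytosolic members had a median of -0.16, with 3 of 4 lower. Over the 6 libraries these medians were -0.15 and -0.19. Cat was at -0.16, within the range of both groups, and Sod3 was at 0.36. The 1 other member above 0 was the cytosolic Gpx1 at 0.05. The highest of the 8 libraries was WT replicate 3 for 4 members, WT replicate 4 for 3, T3TG replicate 3 for 2 and WT replicate 1 for 1. The lowest was T3TG replicate 2 for 3 members, T3TG replicate 4 for 3, T3TG replicate 3 for 2, and WT replicates 1 and 3 for 1 each.

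**Figure D2:**
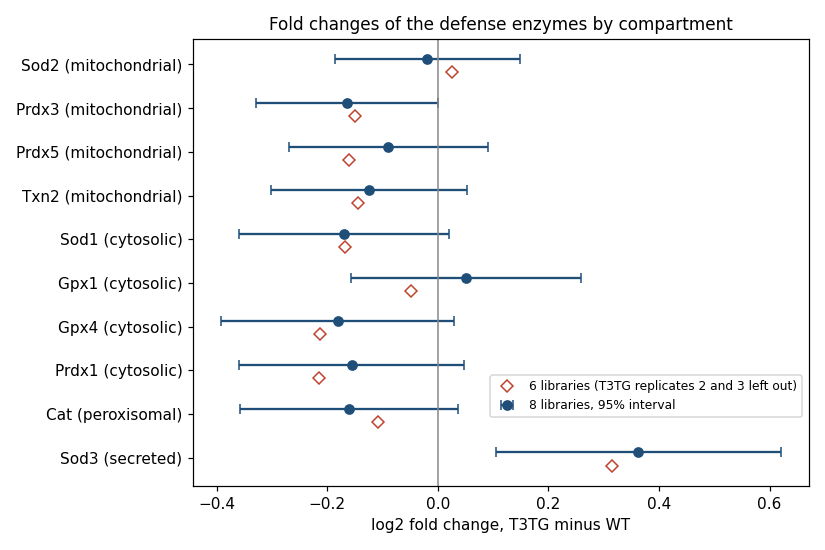
Log2 fold change of T3TG over WT (horizontal axis) for the 10 enzymes, labelled by compartment. Filled points with bars are the values over 8 libraries with their 95% interval and open diamonds the values without T3TG replicates 2 and 3; Sod3 at 0.36 is the member whose interval lies above 0, and Sod2 lies at -0.02.

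Ratios within a library do not depend on the scaling between libraries, and 4 such ratios were compared by exact permutation of the group labels (two-sided), which with these 8 libraries cannot go below a p of 0.0286. Sod3 counts were 10.3% to 17.2% of Sod1 counts in WT and 19.0% to 20.7% in T3TG. The T3TG libraries thus lay closely together above all WT libraries. On the log2 scale the ratio was -2.88 ± 0.35 in WT and -2.34 ± 0.06 in T3TG (SD, n = 4), a difference of 0.54 with an exact p of 0.0286, or 0.0571 after Benjamini-Hochberg adjustment over the 4 ratios. Sod3 counts were 4.78% to 6.09% of Sod2 counts in WT and 6.50% to 8.42% in T3TG, again without overlap. The highest of these, 8.42%, was T3TG replicate 3, a library with even counts. The log2 difference was 0.39, with the same exact p of 0.0286 and adjusted p of 0.0571. Over the 6 libraries the log2 differences were 0.49 for Sod3 to Sod1 and 0.30 for Sod3 to Sod2. Both ratios share Sod3, so they are not separate evidence. With no other ratio at the floor of 0.0286, 0.0571 is the lowest adjusted p that the Sod3 ratios could reach. An adjusted p under 0.05 was thus out of reach whatever the size of the difference.

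The ratio of the mitochondrial to the cytosolic dismutase, Sod2 to Sod1, differed by 0.14 on the log2 scale (T3TG minus WT; exact permutation p 0.314, adjusted 0.419). Prdx3 to Prdx1, the corresponding ratio of peroxiredoxins, differed by -0.01 (exact permutation p 0.943, adjusted 0.943). In both ratios the groups overlapped, and no shift between mitochondrial and cytosolic enzymes was detectable at this number of libraries.

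**Figure D3:**
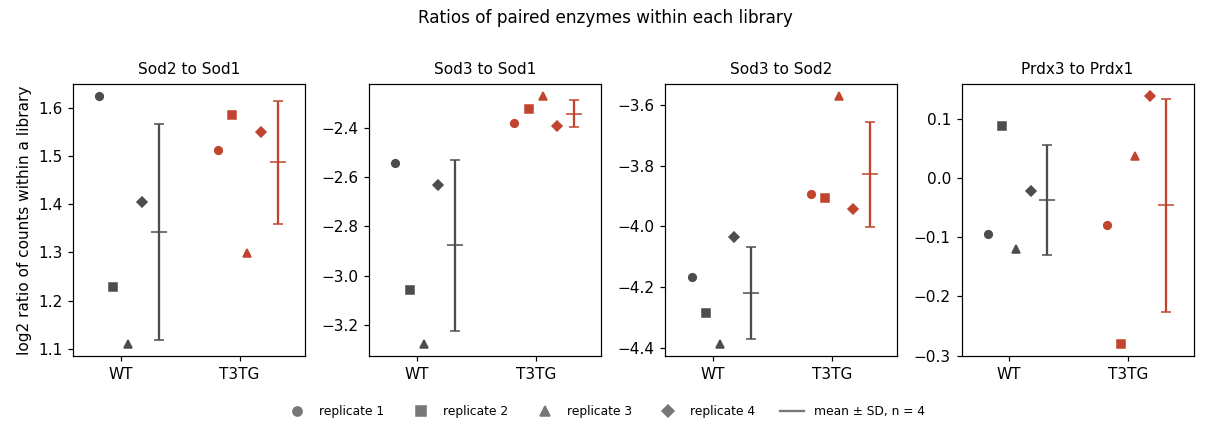
Log2 ratio of the counts of 2 enzymes within each library (vertical axes, which do not start at 0) for 4 pairs, in 4 WT and 4 T3TG libraries with the mean ± SD at the right of each group. The T3TG libraries lie above all WT libraries in both Sod3 ratios and overlap with WT in the other panels.

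Sod3 is known as a product of vascular smooth muscle cells and fibroblasts, and markers of several cell types outside the fibers were read beside it. Of 15 fibroblast and progenitor markers, 15 had higher values in T3TG and 3 passed the adjusted threshold of edgeR (Col3a1, Pi16 and Fbn1). The most abundant of them, Gsn, had a log2 fold change of 0.39. Their summed level was 1786 to 2204 CPM in WT against 2390 to 2878 CPM in T3TG, without overlap. Of 12 endothelial markers, of which Pecam1 was the most abundant (log2 fold change 0.34, or 0.14 over the 6 libraries), 11 were higher, 6 at an unadjusted p under 0.05, and 0 passed in edgeR, with sums of 433 to 550.1 CPM in WT against 582 to 688 CPM in T3TG, also without overlap. The median of the list was 0.23, and 0.16 over the 6 libraries. Of 12 smooth muscle and pericyte markers, 10 were higher, 3 at an unadjusted p under 0.05, and 0 passed. Their sum was 4271 to 4875 CPM in WT and 4147 to 4696 CPM in T3TG, most of it from Des, which muscle fibers also express. Without Des it was 722 to 907 CPM in WT and 892 to 951 CPM in T3TG, and both pairs of ranges overlapped. Of 9 tested adipocyte markers, 9 were higher, 3 at an unadjusted p under 0.05, and 0 passed in edgeR, with a median log2 fold change of 1.45, or 1.69 over the 6 libraries. Their sums overlapped, at 691 to 1161 CPM in WT and 631 to 1189 CPM in T3TG. Over all genes tested, 5.88% were higher in T3TG at an unadjusted p under 0.05 in edgeR, and 0.0711% passed its adjusted threshold with higher values. The part of these cell types in the Sod3 values was not tested. No marker of these lists was at 0 in all libraries. In bulk RNA, more cells of a type and more RNA per cell cannot be told apart.

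Set against the summed fibroblast and progenitor markers, Sod3 amounted to 0.556% to 0.902% in WT and 0.626% to 0.802% in T3TG. The means were 0.763% ± 0.160 and 0.727% ± 0.082 (SD, n = 4), and the groups overlapped fully. Gsn alone held 881 of the mean 1943 CPM of this sum in WT and 1153 of 2600 CPM in T3TG. The percentage without Gsn was not computed. Against the endothelial sum it amounted to 2.23% to 3.22% in WT and 2.84% to 3.23% in T3TG, and these ranges overlapped too. The means there were 2.87% ± 0.45 and 3.03% ± 0.16. Against the smooth muscle and pericyte markers without Des, the ranges were 1.45% to 1.88% and 1.87% to 2.29%, with means of 1.74% ± 0.204 and 2.04% ± 0.197. In this ratio 3 of the 4 T3TG libraries were above all WT libraries, and the other one overlapped with WT narrowly. These relative levels were chosen after the values were seen and were not tested.

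For the mitochondrial members the corresponding yardstick is a list of 20 genes of mitochondrial content, such as citrate synthase and respiratory chain subunits. Of these, 19 had lower values in T3TG, 1 at an unadjusted p under 0.05, and 0 passed the adjusted threshold in edgeR, with a median log2 fold change of -0.07 (-0.02 over the 6 libraries). Over all genes tested, 2.45% were lower at an unadjusted p under 0.05 in edgeR. The sum of the 20 genes was 16901 to 19094 CPM in WT against 15728 to 17515 CPM in T3TG, with overlap. Relative to this sum, Prdx3 amounted to 0.972% to 1.04% in WT and 0.916% to 0.965% in T3TG. The Prdx3 groups did not overlap, by a narrow margin. The mean share was 1.004% ± 0.031 in WT and 0.948% ± 0.022 in T3TG (SD, n = 4). Sod2 at 1.42% to 1.64% against 1.45% to 1.72%, Prdx5 at 0.679% to 0.787% against 0.657% to 0.814% and Txn2 at 0.917% to 0.996% against 0.877% to 0.969% overlapped between the groups. These shares too were chosen after the values were seen and were not tested. Fiber type markers had similar small values, with medians of -0.13 for 10 slow and -0.14 for 10 fast fiber genes and 0 past an unadjusted p of 0.05 or the adjusted threshold in edgeR.

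**Figure D4:**
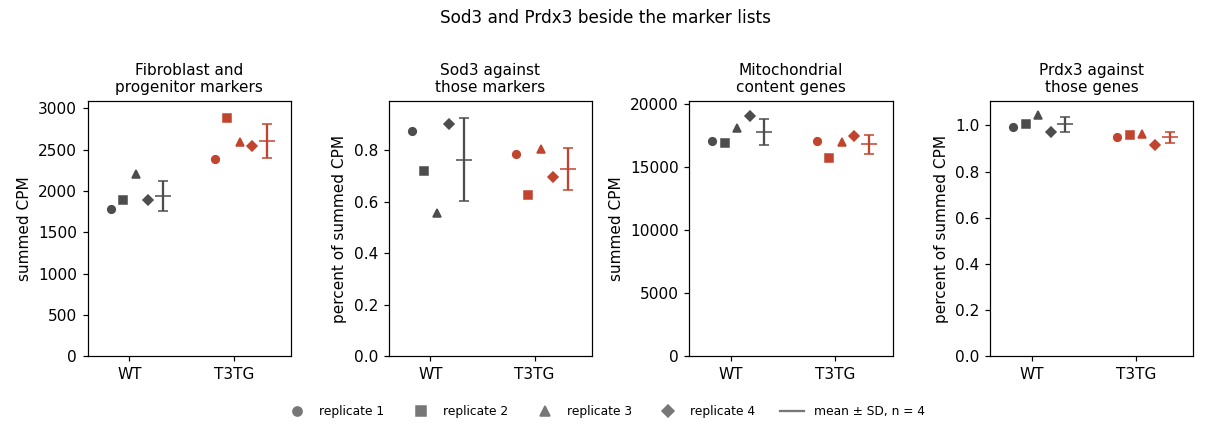
Summed CPM of fibroblast and progenitor markers and of mitochondrial content genes, and Sod3 and Prdx3 as a percent of those sums, in 4 WT and 4 T3TG libraries with the mean ± SD (all vertical axes from 0). The fibroblast and progenitor sum is higher in all T3TG libraries. As a percent of it, Sod3 overlaps between the groups. As a percent of mitochondrial content, Prdx3 is lower in all T3TG libraries. These percentages were chosen after the values were seen and were not tested. Against smooth muscle and pericyte markers without Des (not drawn), the mean Sod3 percentage was 1.74% in WT and 2.04% in T3TG.

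Genes that serve these enzymes were read from 7 lists, and 0 of their genes passed the adjusted threshold of edgeR, while G6pdx, Loxl2 and Ppargc1b passed that of DESeq2. Beside each list stand the genes at an unadjusted p under 0.05 in edgeR. Over all genes tested, 5.88% were higher and 2.45% lower in T3TG at that p. Every T3TG library was above every WT library for 3.12% of all genes, and below for 1.66%. Of 20 thioredoxin and peroxiredoxin partners, 7 were higher and 13 lower in T3TG, with a median log2 fold change of -0.03 and 1 gene at an unadjusted p under 0.05, lower. Glrx3, a glutaredoxin that binds iron-sulfur clusters, was at 121 ± 11.7 CPM in WT against 105 ± 5.51 CPM in T3TG (SD, n = 4; log2 fold change -0.20, adjusted p 0.551 in edgeR). Glrx2, the mitochondrial glutaredoxin, had a log2 fold change of -0.15, or -0.08 over the 6 libraries. Txnip, the inhibitor of thioredoxin and the most abundant gene of this list, was at 860 ± 16.5 CPM in WT and spread widely in T3TG, at 906 ± 182 CPM (log2 fold change 0.08, or 0.0035 over the 6 libraries). The T3TG libraries included both the lowest and the highest Txnip value of the 8.

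Of 19 tested genes for glutathione synthesis, reduction and transfer, 7 were higher and 12 lower, with a median of -0.06 and 2 genes at an unadjusted p under 0.05, both lower. The glutathione transferases Gstm5 and Mgst3 had lower values in every T3TG library than in any WT library, with log2 fold changes of -0.26 and -0.24 and adjusted p-values of 0.424 and 0.443 in edgeR. Gpx3, the secreted glutathione peroxidase of plasma and the most abundant gene of this list, was at 357 CPM in WT against 369 CPM in T3TG, a log2 fold change of 0.05 that was -0.11 over the 6 libraries. Its groups overlapped, unlike those of Sod3.

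Of 15 genes that supply NADPH, the reductant behind both systems, 8 were higher and 7 lower, with a median of 0.01 and 1 gene at an unadjusted p under 0.05. G6pdx, the entry enzyme of the pentose phosphate pathway, had the lowest p. It was at 4.57, 4.04, 4.42 and 4.70 CPM in WT replicates 1 to 4 and at 4.97, 8.21, 10.1 and 10.2 CPM in T3TG replicates 1 to 4. The groups did not overlap, but T3TG replicate 1 was close to WT. Its log2 fold change was 0.91 (SE 0.21), and its adjusted p was 0.123 in edgeR and 0.0168 in DESeq2. Adipocytes are known to use this enzyme for lipid synthesis, and the part of the adipocyte markers given above in its values was not tested. Me1, cytosolic malic enzyme, had a log2 fold change of -0.26, and Idh2, the mitochondrial NADP-dependent isocitrate dehydrogenase and a known SIRT3 substrate, was at 504 ± 134 CPM in WT against 459 ± 46.2 CPM in T3TG (SD, n = 4).

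Of 17 tested NRF2 regulators and targets, 10 were higher and 7 lower, with a median of 0.01 and 3 genes at an unadjusted p under 0.05, all higher. NRF2 (Nfe2l2) is the factor that induces antioxidant genes under stress. Besides G6pdx, which this list also holds, Blvrb, a biliverdin and flavin reductase, had a log2 fold change of 0.40 (adjusted p 0.561 in edgeR). Fth1, the ferritin heavy chain and its most abundant gene, was at 1946 CPM in WT against 1711 CPM in T3TG, a log2 fold change of -0.19, or -0.37 over the 6 libraries.

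Of 18 tested genes whose products make superoxide or peroxide, 14 were higher and 4 lower in T3TG. The median log2 fold change was 0.36, and 0.15 over the 6 libraries. Higher values at an unadjusted p under 0.05 in edgeR were found for 5 genes and lower ones for 1, against 5.88% and 2.45% of all genes tested. Loxl2, a secreted lysyl oxidase that crosslinks collagen and releases peroxide, was at 7.28, 6.82, 7.96 and 7.36 CPM in WT replicates 1 to 4 and at 12.2, 14.6, 10.8 and 9.78 CPM in T3TG replicates 1 to 4. The log2 fold change was 0.69 (SE 0.15), and the adjusted p was 0.110 in edgeR and 0.00953 in DESeq2. Cyba, a membrane subunit of NADPH oxidases, was at 7.45 ± 1.26 CPM in WT against 11.1 ± 1.64 CPM in T3TG (SD, n = 4; log2 fold change 0.58, adjusted p 0.253 in edgeR). Several genes of this list are made by fibroblasts or macrophages, and 14 of 15 macrophage markers were higher in T3TG, with 9 at an unadjusted p under 0.05, 0 past the adjusted threshold and a median of 0.53, or 0.26 over the 6 libraries. The macrophage sum was 277 to 382 CPM in WT against 346 to 613 CPM in T3TG, and its part in the values of this list was not tested.

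Of 16 tested genes listed for the metal and selenium supply of these enzymes, 7 were higher and 9 lower, with a median of -0.03 and 1 gene in each direction at an unadjusted p under 0.05. The list includes Mtm1 (log2 fold change 0.02, or -0.12 over the 6 libraries), whose part in this supply is not established here. Pstk, the kinase that prepares serine-tRNA for selenocysteine synthesis, stood at 24.2, 25.6, 28.3 and 25.8 CPM in WT replicates 1 to 4 and at 20.5, 22.1, 21.2 and 20.2 CPM in T3TG replicates 1 to 4. All T3TG values were below all WT values, with a log2 fold change of -0.31 (SE 0.09) and an adjusted p of 0.284 in edgeR. Sepp1, selenoprotein P, the selenium carrier of plasma and the most abundant gene of this list, was higher in every T3TG library than in any WT library, at 192 ± 9.69 CPM in WT against 228 ± 25.3 CPM in T3TG (SD, n = 4). Its log2 fold change of 0.24 (adjusted p 0.457 in edgeR) was 0.10 over the 6 libraries. The selenoproteins Gpx1 and Gpx4, whose TGA codons are shown above, had log2 fold changes of opposite sign, 0.05 and -0.18.

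Of 11 genes listed for the route from SIRT3 and FOXO factors to Sod2 and Cat, 4 were higher and 7 lower, with a median of -0.09 and 2 genes at an unadjusted p under 0.05, both lower. The list is broader than the route itself, as it also holds the SIRT3 substrate Idh2. Ppargc1b, a coactivator of mitochondrial genes, was at 27.9, 29.8, 24.7 and 21.3 CPM in WT replicates 1 to 4 and at 18.9, 19.2, 13.5 and 15.6 CPM in T3TG replicates 1 to 4. All T3TG values were lower, with a log2 fold change of -0.63 (SE 0.13) and an adjusted p of 0.109 in edgeR and 0.0104 in DESeq2. Foxo4, a FOXO factor, was at 154 CPM in WT against 131 CPM in T3TG, a log2 fold change of -0.24 (adjusted p 0.490 in edgeR). The related Foxo1, Foxo3 and Ppargc1a were among the 4 higher genes, with overlapping groups. Their log2 fold changes were 0.62 (SE 0.88), 0.25 (SE 0.26, or 0.11 over the 6 libraries) and 0.45 (SE 0.42). Sod2 and Cat, the genes at the end of this route, were at -0.02 and -0.16.

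Promoter windows from 250 bases before to 50 after the start were available for 9 of the 10 genes, as RefSeq sequences of GRCm38.p6, and were searched on both strands. The core of the antioxidant response element, TGACNNNGC, occurred in 2 of the 9, Prdx1 and Sod1, and in 12.4% of 32851 windows. Both matches are shown with 15 bases on either side, in capitals and as their reverse complement reads, at chr4:116685451-116685489 and chr16:90220691-90220729.
Prdx1: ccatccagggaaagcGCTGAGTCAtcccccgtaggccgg
Sod1: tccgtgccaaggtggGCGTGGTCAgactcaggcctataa
The letters of the Prdx1 match also hold TGAGTCA, the AP-1 type motif, so that match is shared between motifs. The FOXO type motif TGTTTAC was found in 0 of the 9 windows and in 3.65% of all windows. Prdx1 and Sod1, the genes with the match, had log2 fold changes of -0.16 and -0.17, within the range of the members without it.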

How the data were processed

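RNA of gastrocnemius muscle was measured in 8 polyA libraries, 4 WT and 4 T3TG, grouped by the genotype label. The deposited values are whole-number read counts by gene symbol, without normalization, which the authors made with HISAT2 2.2.1 and HTSeq 0.9.1 on mm10, tools that the submitters' processing notes list together with DESeq2 1.34.0. Neither the annotation nor the strand setting is named there. Of its 35976 rows, 27 have a date where the symbol should be and hold 0.0885% to 0.0961% of the counts of a library. They were left out.

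Counts were filtered with filterByExpr, scaled with TMM and fitted over all genes with edgeR 4.0.16 in R 4.3.3 (quasi-likelihood test, group as the only term, Benjamini-Hochberg adjustment over 14064 genes). The SE is the absolute log2 fold change divided by the square root of F, and 95% intervals use the fit's degrees of freedom. Counting error weighs most on Sod3, whose lowest deposited count was 194, against 1110 or more for the other members. Its part in the spread of Sod3 was not measured. Log2 ratios within a library used a pseudocount of 0.5 and an exact permutation test. The scripts were tested on simulated data.

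Members and lists were chosen with earlier results of these data known. The named genes are all members, Sirt3, of each pathway list the pair of genes with the lowest p and the most abundant gene, and of marker lists the most abundant gene. Col3a1, Pi16, Fbn1, Foxo1, Foxo3, Ppargc1a and Mtm1 were named in addition, after their values were seen. The most abundant gene of 1 pathway list is not reported here. Alternatives were other scalings and filters, DESeq2 1.42.0, voom of limma 3.58.1, leaving out or halving the libraries with even counts, a replicate block, a title term, another threshold, and leaving out each library. Coordinates and promoters come from RefSeq tables of GRCm38.p6, and coding sequences and lengths from GENCODE M21.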

Additional observations from a re-analysis of the deposited data

Results flagged for a closer look

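In 3 of the 28 groups of 4 libraries examined, 1 library stood apart from the other 3 by more than Dixon's critical value at the 95% level. Chance flags about 1 in 20 groups. All 3 concern T3TG replicate 3. Txn2 was at 164 CPM there, against 152 to 154 CPM in the other T3TG libraries. Gpx1 was at 84.4 CPM there, against 66.5 to 68.4 CPM. The log2 ratio of Sod3 to Sod2 was -3.57 there, against -3.94 to -3.89. The same library had the most counts (28.1 M), one of the 2 sets of even counts and a summed level of red cell markers of 638 CPM, against 146 to 228 CPM in the other 7 libraries. Its hemoglobin gene Hbb-bs stood at 276 CPM. The part of these properties in the 3 values was not tested. Without this library the log2 fold change of Gpx1 was -0.04 and that of Txn2 stayed below 0.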

How the results depend on the processing

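Members past the adjusted threshold numbered 0 under each of the 20 alternatives, and of 190 member values 6 had another sign. These were Sod2 with library totals (0.033), over the 6 libraries (0.026) and without T3TG replicate 3 (range when leaving out each library -0.044 to 0.017), and Gpx1 over the 6 libraries (-0.049) and without WT replicate 1 or T3TG replicate 3 (range -0.038 to 0.12). The Prdx3 to Prdx1 ratio was 0.067 over the 6 libraries and -0.070 to 0.069 when leaving out each library. All these values are within their spread. The Sod3 log2 fold change ran from 0.27 to 0.44, with an unadjusted p under 0.05 in 17 of 19 alternatives and adjusted p-values from 0.220 to 0.997 (edgeR, DESeq2 or limma). Prdx3 had an unadjusted p under 0.05 in 5 of 19.

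Of all genes, the 10 passing with higher values became 52 with library totals, 104 without a filter, 99 with DESeq2, 2 with voom, 0 over the 6 libraries, 1 with a term for first title number 6, 30 at a threshold of 0.1, and 0 to 37 when leaving out each library, 37 without T3TG replicate 1. The 0 passing with lower values, beside 345 at an unadjusted p under 0.05 in edgeR, became 3 without a filter, 6 with DESeq2, 1 with the title term and 0 to 1 when leaving out each library. The first title number, whose meaning is not given, is 6 in 3 of 4 T3TG and 1 of 4 WT libraries. With a replicate block on it, 3 genes passed higher and 1 lower, Sod3 was at 0.27 (unadjusted p 0.0959 in edgeR, against 0.00888 without the block) and Prdx3 at -0.16. Without factors the median of all genes moved to 0.05. The cause of these shifts was not tested.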
